A study of Homo sapiens with 15 samples.

Results

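The genes described here are 10 collagen genes whose products do not belong to the hemidesmosome: COL1A1, COL4A1, COL4A2, COL5A1, COL5A2, COL6A1, COL6A2, COL6A3, COL7A1 and COL12A1. They were found by gene symbol in 2 tables of RNA levels from cultured oral epithelial lines. Each table lists 12995 genes, 23 of them collagen alpha chains, and 9 of the 10 genes were measured. COL6A3 was not analysed here, and neither were COL1A2 and COL3A1, the usual partners of COL1A1 in fibroblast matrix.

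Collagens are trimers of alpha chains wound into a triple helix. Types I and V (COL1A1, COL5A1, COL5A2) build fibrils, with type V serving to start them. Type IV (COL4A1, COL4A2) forms the sheet of the basement membrane under an epithelium, and type VI (COL6A1, COL6A2, COL6A3) forms beaded filaments beside it. Type VII (COL7A1) makes the anchoring fibrils that tie the basement membrane to the connective tissue, and type XII (COL12A1) decorates fibril surfaces. COL17A1, a membrane-spanning collagen, is the chain of the hemidesmosome itself. In mucosa, keratinocytes supply types IV and VII, while fibrillar and type VI collagens come mostly from fibroblasts.

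RNA was measured by 3′ end sequencing in 15 libraries that formed 5 groups of 3. OKF6 is a normal oral epithelial line, labelled wild type. SCC15 and SCC25 are lines from oral squamous cell carcinoma, and both carried Cas9 and a doxycycline-inducible guide against YBX1, a Y-box RNA- and DNA-binding protein. Without doxycycline they are called +YBX1 and are labelled wild type, and after 1 µg/ml doxycycline for 3 days they are called -YBX1 and are labelled knockout. The transduced cells were sorted for both reporters and expanded as pools. No control for doxycycline alone was among the libraries analysed. SCC15 was kept in DMEM containing foetal bovine serum, whereas a serum-free keratinocyte medium was used for the other lines. Line and medium therefore cannot be told apart in any comparison with SCC15. The labels number replicates without naming separate cultures, and the p-values below then measure only the spread between these libraries, which may be technical.

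Libraries held 4075290 to 6118501 reads on genes. Levels are counts per 1000000 of the library size behind the deposited values (CPM). That size was rescaled and is not the read total of the library. A single read was worth 0.138 to 0.226 CPM and a floor of 3 reads at most 0.677 CPM. This covers counting error only. All levels below are log2 CPM, with 0.5 added to each read count. Reads come from the 3′ end, so a level is not divided by transcript length. No other annotated gene overlapped the last 1000 bases of any of the 10 genes on either strand. SCC15 is known as a squamous, thus epithelial, carcinoma line, and its RNA was at odds with that. The summed level of 8 epithelial markers (KRT5, KRT14, KRT8, KRT18, KRT17, CDH1, EPCAM and TP63) was 10012 to 20899 CPM in OKF6 and 5414 to 11910 CPM in SCC25 +YBX1, but 63.7 to 77.3 CPM in SCC15 +YBX1 and 48.8 to 64.4 CPM in SCC15 -YBX1. All 8 were lower in SCC15 than in SCC25, and TP63 had 1 read over the 3 SCC15 +YBX1 libraries. Of 8 fibroblast markers only LUM was measured, with 0, 0 and 0 reads in OKF6, 15, 2 and 13 in SCC15 +YBX1 and 0, 1 and 0 in SCC25 +YBX1. None of 5 endothelial markers was analysed, and of 4 leukocyte markers only CD68 was, at 35.7 to 39.4 CPM in SCC25 +YBX1 and 0.231 to 1.18 CPM in SCC15 +YBX1. Less RNA per cell and fewer cells expressing a gene cannot be told apart in these bulk libraries. The part of these marker differences in the collagen differences was not tested.

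The genes lie on 7 chromosomes of hg38, and some are neighbours. COL4A1 (chr13:110148963-110307157, minus strand) and COL4A2 (chr13:110305812-110513209, plus strand) are transcribed away from each other, and their annotated GENCODE gene models share 1346 bases. COL6A1 (chr21:45981770-46005050) and COL6A2 (chr21:46098112-46132848) lie on the plus strand with 93061 bases between them. The others stand alone: COL1A1 at chr17:50184101-50201632, COL5A1 at chr9:134641803-134844843, COL5A2 at chr2:189031898-189225312, COL7A1 at chr3:48564073-48595329 and COL12A1 at chr6:75084326-75206267. Promoter windows from RefSeq (GRCh38.p14) matched 7 of the 10 genes, and COL1A1, COL5A2 and COL6A1 had none. The sequences shown are the stretch between the RefSeq starts of COL4A1 and COL4A2 (chr13:110307158-110307283, written on the COL4A2 strand), and the 250 bases before the starts of COL6A2 (chr21:46097862-46098111, plus strand), COL7A1 (chr3:48595330-48595579, minus strand) and COL12A1 (chr6:75206054-75206303, minus strand). The first is shown because a pair of members shares it, and the others are from genes that were all but silent in 1 line. COL5A1 was also nearly absent from 1 line, and its window is described below without being shown. Capitals mark CCAAT (the core of the Y-box), GGGCGG and TATAAA on either strand.
COL4A1 to COL4A2: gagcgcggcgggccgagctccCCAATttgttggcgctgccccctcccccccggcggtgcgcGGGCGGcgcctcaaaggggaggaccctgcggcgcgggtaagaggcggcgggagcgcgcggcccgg
COL6A2: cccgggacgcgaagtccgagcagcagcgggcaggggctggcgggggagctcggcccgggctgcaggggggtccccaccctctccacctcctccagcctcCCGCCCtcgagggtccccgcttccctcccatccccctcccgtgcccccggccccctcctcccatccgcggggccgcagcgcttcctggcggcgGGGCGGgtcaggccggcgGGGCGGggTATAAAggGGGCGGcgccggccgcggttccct
COL7A1: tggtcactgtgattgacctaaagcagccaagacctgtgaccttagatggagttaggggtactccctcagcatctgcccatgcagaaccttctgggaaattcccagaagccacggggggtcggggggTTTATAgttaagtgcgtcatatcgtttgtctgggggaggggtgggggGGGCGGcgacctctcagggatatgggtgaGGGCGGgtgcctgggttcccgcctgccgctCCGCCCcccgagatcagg
COL12A1: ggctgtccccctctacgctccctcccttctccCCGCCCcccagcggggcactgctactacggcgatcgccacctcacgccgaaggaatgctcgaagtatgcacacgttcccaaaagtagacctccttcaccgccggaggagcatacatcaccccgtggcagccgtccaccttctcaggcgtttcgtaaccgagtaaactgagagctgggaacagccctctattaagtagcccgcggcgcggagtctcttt

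The starts of COL4A1 and COL4A2 were 127 bases apart, and the stretch between them held 1 CCAAT and 1 GGGCGG. Of 34943 RefSeq windows cut to the same 126 bases, 21.1% held CCAAT and 34.5% GGGCGG. The COL6A2 window held 4 GGGCGG and 1 TATAAA that began 32 bases before the start. The COL7A1 window held 3 GGGCGG and a TATAAA on the opposite strand, and the COL12A1 window held 1 GGGCGG. COL5A1 had 2 GGGCGG in its 250 bases, and none of COL5A1, COL6A2, COL7A1 and COL12A1 had CCAAT. Over all 250-base windows, 32.0% held CCAAT, 42.5% GGGCGG and 10.8% TATAAA. A match is a description of letters, and neither its presence nor its absence shows binding.

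The fibril-forming chains showed 3 different patterns over the lines. COL1A1 stood at 5.13, 4.87 and 5.48 in OKF6, at 4.79, 3.47 and 3.72 in SCC15 +YBX1, and at 5.61, 4.44 and 6.62 in SCC25 +YBX1. The SCC15 libraries lay below those of OKF6, whereas SCC25 overlapped both other lines. COL5A1 was nearly absent from OKF6, with 14, 0 and 5 reads at levels of 1.47, -3.15 and -0.11. In SCC15 +YBX1 it reached 4.92, 3.44 and 4.11, and in SCC25 +YBX1 8.15, 8.16 and 8.28, so the 3 lines did not overlap. COL5A2, which joins COL5A1 in the usual type V trimer, was the reverse in OKF6 and SCC15. Its levels were 4.36, 1.98 and 2.94 in OKF6 and 4.27, 4.83 and 4.46 in SCC25 +YBX1, but -0.29, -3.57 and -0.53 in SCC15 +YBX1, from 4, 0 and 4 reads. OKF6 therefore carried COL5A2 with little COL5A1, SCC15 carried COL5A1 with little COL5A2, and SCC25 carried both.

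The basement membrane chains were present in every library. COL4A1 stood at 5.60, 5.31 and 5.02 in OKF6, at 4.64, 4.53 and 4.15 in SCC15 +YBX1 and at 6.89, 6.25 and 7.07 in SCC25 +YBX1. The 3 lines did not overlap, with SCC25 highest and SCC15 lowest. COL4A2 stood at 4.19, 5.56 and 5.64 in OKF6, at 4.97, 4.90 and 4.98 in SCC15 +YBX1 and at 6.36, 6.04 and 6.16 in SCC25 +YBX1. Every SCC25 library lay above the others, and the SCC15 libraries fell within the span of OKF6, whose first library was low. The means of the 5 groups spanned 1.23 for COL4A2, 1.61 for COL1A1 and 2.48 for COL4A1, and from 6.32 to 9.56 for the other genes.

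Type VI collagen RNA was high in both cancer lines and close to 0 in OKF6. COL6A1 had 1, 0 and 9 reads in OKF6 (-1.80, -3.15 and 0.68) and stood at 8.74, 7.84 and 7.83 in SCC15 +YBX1 and at 7.58, 7.54 and 7.90 in SCC25 +YBX1. The cancer lines overlapped, and both lay far above OKF6. COL6A2 had 0, 0 and 1 reads in OKF6 (-3.38, -3.15 and -1.98), and stood at 4.93, 4.43 and 4.63 in SCC15 +YBX1 and at 6.27, 6.14 and 6.42 in SCC25 +YBX1. Here the cancer lines did not overlap. All OKF6 libraries were at or under the floor of 3 reads for COL6A2.

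The anchoring fibril and fibril-surface chains instead had their highest means in OKF6 and their lowest in SCC15. COL7A1 stood at 5.99, 8.25 and 7.70 in OKF6 and at 6.00, 5.34 and 5.10 in SCC25 +YBX1, but at 0.63, -0.40 and 0.55 in SCC15 +YBX1, from 8, 4 and 9 reads. OKF6 replicate 1 lay at the level of the highest SCC25 library. COL12A1 stood at 6.85, 6.21 and 6.64 in OKF6, at 3.51, 3.29 and 5.27 in SCC25 +YBX1 and at -1.87, -0.11 and -0.24 in SCC15 +YBX1, from 1, 5 and 5 reads. For COL12A1 the 3 lines did not overlap.

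**Figure D1:**
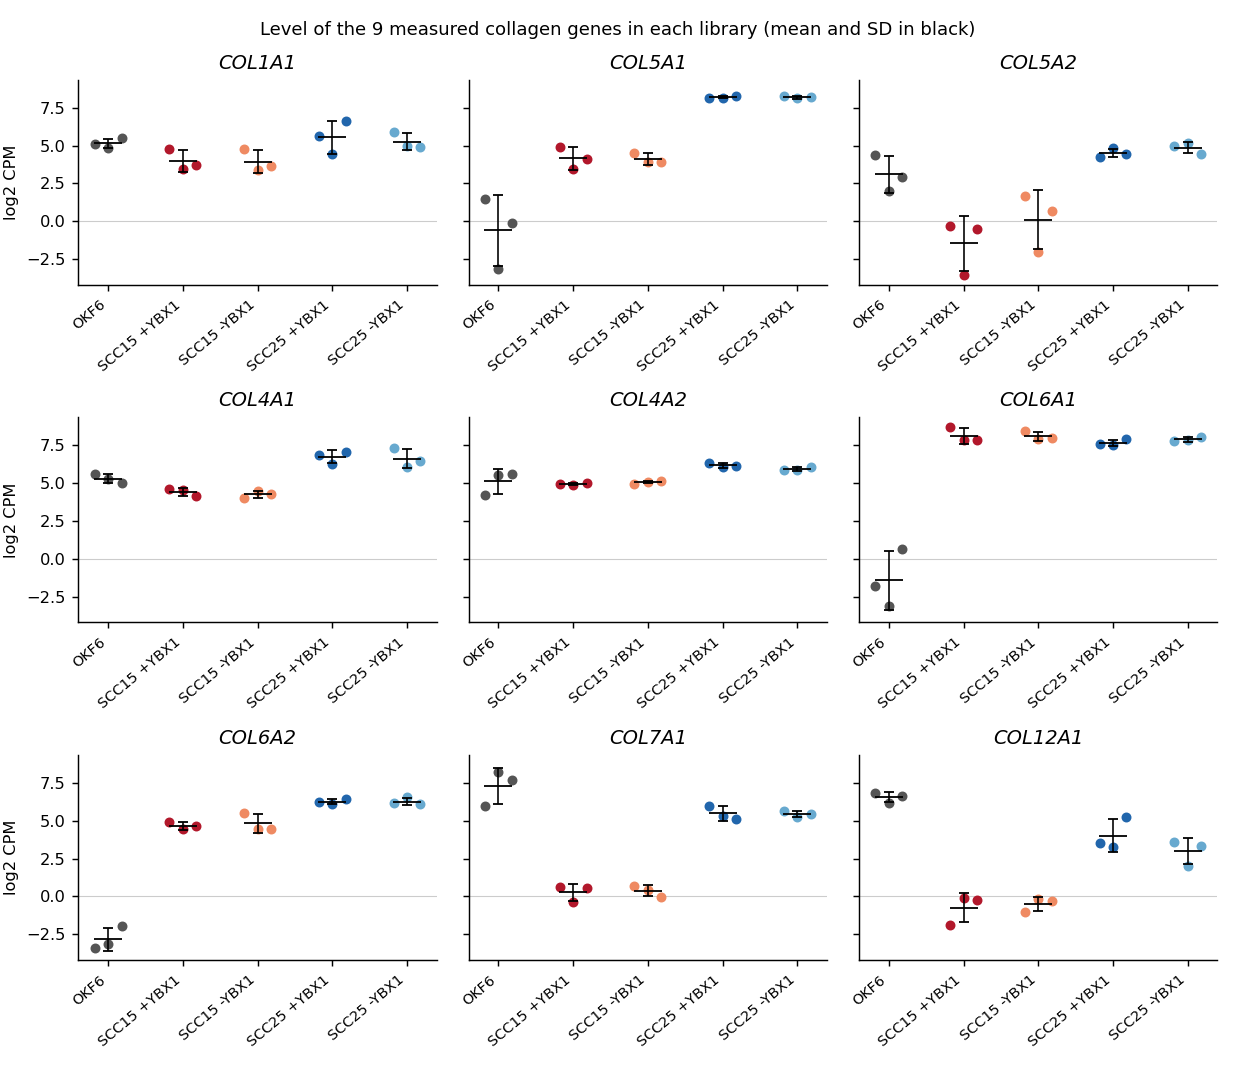
Level of the 9 measured genes in log2 CPM (vertical axis) in each of the 5 groups (horizontal axis). Points are single libraries and black marks the mean and SD of 3. COL6A1, COL6A2 and COL5A1 are lowest in OKF6, COL7A1 and COL12A1 are lowest in SCC15, and the +YBX1 and -YBX1 groups of a line lie side by side in every panel.

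Between the cancer lines, collagen RNA was lower in SCC15. Of the 9 genes, 8 were lower in SCC15 +YBX1 than in SCC25 +YBX1 and 0 were higher (limma on the deposited log2 values, Benjamini-Hochberg adjusted p under 0.05). Over all genes, 23.6% were lower and 20.0% higher in this comparison, that is 3070 and 2602 genes. That balance turned with library medians set equal (2685 lower and 3045 higher) and with quantiles set equal (2767 lower and 3430 higher), whereas 0 of the 9 genes were higher under either. The median log2 difference was -2.30 over the 9 genes and -0.01 over all genes. Setting library medians equal moved the median of all genes by 0.15 here and by 0.16 in the comparison of SCC15 with OKF6, and setting quantiles equal moved it by 0.18 here and by -0.18 for SCC25 against OKF6. The differences below stand on the authors' scaling.

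COL5A2 differed by -5.98 ± 0.87 (SE, adjusted p = 2.42e-04). Its SCC15 level rests on few reads, and the difference was -5.06 with 2 instead of 0.5 added to each read count, -4.93 without SCC15 +YBX1 replicate 2 and -6.57 without SCC15 +YBX1 replicate 1. COL7A1 differed by -5.22 ± 0.54 (adjusted p = 2.00e-05), or 37.3-fold. COL12A1 differed by -4.76 ± 0.61 (adjusted p = 9.58e-05), or by -4.14 without SCC25 +YBX1 replicate 3, where it was highest. With quantiles set equal, COL7A1 differed by -5.93 and COL12A1 by -5.43. COL5A1 was 16.5-fold lower in SCC15 (-4.04 ± 0.91, adjusted p = 0.00436).

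Smaller differences were seen for the chains that both lines expressed well. COL4A1 was 4.91-fold lower in SCC15 (-2.30 ± 0.27, adjusted p = 4.66e-05) and COL4A2 2.35-fold lower (-1.23 ± 0.34, adjusted p = 0.0134), a call lost without SCC25 +YBX1 replicate 1 (adjusted p = 0.0532). COL6A2 was 3.06-fold lower (-1.61 ± 0.44, adjusted p = 0.0126), and its call was lost without SCC15 +YBX1 replicate 2 or SCC25 +YBX1 replicate 3 (adjusted p = 0.0562 in both) and with quantiles set equal (adjusted p = 0.0871). COL1A1 was 2.96-fold lower (-1.57 ± 0.51, adjusted p = 0.0284). Its groups overlapped, and the call was lost without SCC15 +YBX1 replicate 2 or 3 or SCC25 +YBX1 replicate 1 or 3, with adjusted p up to 0.120. COL6A1 was the exception, with a difference of 0.46 ± 0.74 (95% interval -1.18 to 2.11, adjusted p = 0.646). This fit takes 1 spread per gene over SCC15, SCC25 and OKF6, so intervals and calls rest partly on OKF6. The SD in OKF6, SCC15 and SCC25 was 1.94, 0.52 and 0.20 for COL6A1 and 0.81, 0.04 and 0.16 for COL4A2. For COL5A1 it was 2.35, 0.74 and 0.07. COL6A2 and COL7A1 also spread most in OKF6, whereas COL1A1 and COL12A1 spread least there.

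The same comparison in the -YBX1 libraries, whose means rest on other libraries, gave 8 lower and 0 higher of 9. Over all genes 29.1% were lower and 28.0% higher. COL7A1 differed by -5.08 ± 0.37 (adjusted p = 5.40e-08), COL5A1 by -4.08 ± 0.29 (adjusted p = 4.67e-08) and COL5A2 by -4.76 ± 0.90 (adjusted p = 4.53e-04). Without SCC15 -YBX1 replicate 2, the library with a single COL5A2 read, the last was -3.68, and without SCC15 -YBX1 replicate 1 it was -5.56. COL12A1 differed by -3.47 ± 0.64, COL4A1 by -2.36 ± 0.29, COL6A2 by -1.44 ± 0.26 and COL4A2 by -0.88 ± 0.15, with adjusted p from 1.10e-05 to 3.87e-04. COL1A1 was 2.49-fold lower (-1.32 ± 0.52, adjusted p = 0.0445), and this call was lost in 7 of 12 fits that left out a library, with adjusted p up to 0.166 without SCC25 -YBX1 replicate 1. COL6A1 again gave no call (0.21 ± 0.24, 95% interval -0.30 to 0.72, adjusted p = 0.465).

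Against the normal line, SCC15 had 3 of the 9 genes higher and 4 lower. The shares over all genes were 26.9% and 23.4%. COL6A1 was higher by 9.56 ± 0.74 (adjusted p = 1.93e-06), or by 8.70 without OKF6 replicate 2 and 10.61 without OKF6 replicate 3. COL6A2 had 454 reads over 3 SCC15 libraries and 1 read over 3 OKF6 libraries (limma adjusted p = 3.64e-07). Corrected for the rescaled library sizes, the ratio was 395 with an exact counting interval of 70.5 to 15633. Such an interval, here and below, covers counting error and not the spread between libraries. COL5A1 was higher by 4.75 ± 0.91 (adjusted p = 0.00125), or by 3.48 without OKF6 replicate 2, which had 0 reads, and 5.79 without OKF6 replicate 1.

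Lower in SCC15 than in OKF6 were COL12A1 by -7.31 ± 0.61 (158-fold, adjusted p = 3.13e-06), COL7A1 by -7.06 ± 0.54 (133-fold, adjusted p = 1.72e-06) and COL5A2 by -4.56 ± 0.87 (adjusted p = 0.00123). For COL7A1 the difference was -7.72 without OKF6 replicate 1. For COL5A2 it was -3.67 with 2 added to each read count, -3.50 without SCC15 +YBX1 replicate 2, -5.14 without SCC15 +YBX1 replicate 1 and -3.92 without OKF6 replicate 1. With quantiles set equal, COL12A1 was at -8.02 and COL7A1 at -7.93. COL4A1 was 1.83-fold lower (-0.87 ± 0.27, adjusted p = 0.0191), a call lost without SCC15 +YBX1 replicate 3 (adjusted p = 0.0769) and with library medians set equal (adjusted p = 0.0520). COL1A1 (-1.17 ± 0.51, adjusted p = 0.0781) and COL4A2 (-0.18 ± 0.34, 95% interval -0.93 to 0.58, adjusted p = 0.693) did not pass. COL1A1 passed without SCC15 +YBX1 replicate 1 or SCC25 +YBX1 replicate 2 or 3 (adjusted p 0.0376 to 0.0462), and COL4A2 passed without OKF6 replicate 1, at -0.64 (adjusted p = 0.00961).

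SCC25, grown in the same medium as OKF6, had 5 of the 9 genes higher than OKF6 and 2 lower. OKF6 is not labelled as carrying Cas9 or the guide, so this construct cannot be told apart from the line. OKF6 replicate 1 stood apart from replicates 2 and 3 over all genes. Its chi-square per degree of freedom for counting error was 80.85 and 79.25 against them, and 26.06 between replicates 2 and 3. Over all genes 18.9% were higher and 11.3% lower, that is 2450 and 1473 genes, or 2006 and 1837 with quantiles set equal. COL6A1 was higher by 9.10 ± 0.74 (adjusted p = 1.69e-05), or by 8.23 without OKF6 replicate 2 and 10.15 without OKF6 replicate 3. COL5A1 was higher by 8.79 ± 0.91 (adjusted p = 6.62e-05), or by 7.52 without OKF6 replicate 2 and 9.83 without OKF6 replicate 1. COL6A2 had 1178 reads in SCC25 +YBX1 and 1 in OKF6, a ratio of 1207 with an exact counting interval of 216 to 47727. With 2 instead of 0.5 added to each read count, the differences from OKF6 were 8.03 for COL6A1, 7.97 for COL5A1 and 7.45 for COL6A2 in SCC25, and 8.49, 3.95 and 5.85 in SCC15. With quantiles set equal they were 8.16, 7.87 and 8.07 in SCC25, while SCC15 gave 8.93, 4.12 and 6.68.

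The basement membrane chains were modestly higher in SCC25 than in OKF6. COL4A1 was 2.69-fold higher (1.43 ± 0.27, adjusted p = 0.00272) and COL4A2 2.08-fold higher (1.06 ± 0.34, adjusted p = 0.0382). The COL4A2 call was lost in each of the 6 fits without an SCC15 or SCC25 library, with adjusted p up to 0.120. COL12A1 was 5.84-fold lower (-2.55 ± 0.61, adjusted p = 0.00982), or by -3.17 without SCC25 +YBX1 replicate 3. COL7A1 was 3.56-fold lower (-1.83 ± 0.54, adjusted p = 0.0263). That call was lost without OKF6 replicate 2 or 3 or SCC25 +YBX1 replicate 2 or 3 (adjusted p 0.0831 to 0.0954), and the difference was -2.50 without OKF6 replicate 1. COL5A2 (1.42 ± 0.87, 95% interval -0.50 to 3.34, adjusted p = 0.242) and COL1A1 (0.40 ± 0.51, 95% interval -0.73 to 1.52, adjusted p = 0.584) did not pass. The comparisons of SCC15 and SCC25 with OKF6 share the OKF6 libraries, so their values are set side by side and were not correlated.

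**Figure D2:**
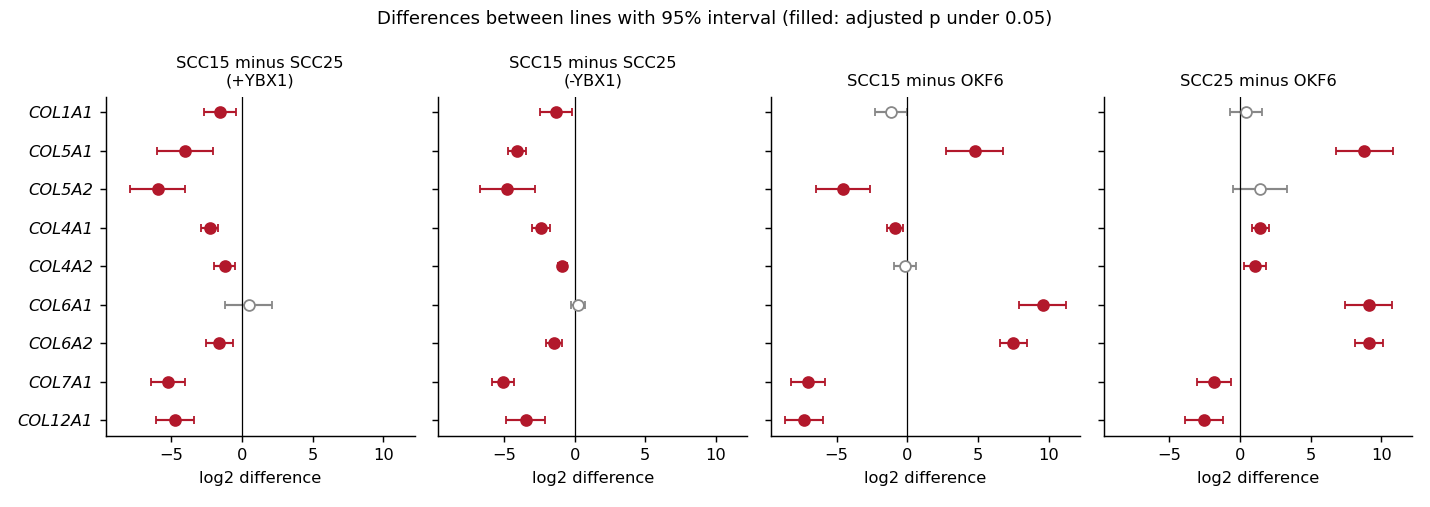
Difference in log2 CPM between lines (horizontal axis) for the 9 genes (vertical axis) in 4 comparisons, with the 95% interval. Filled points passed an adjusted p of 0.05. In the left pair of panels every gene but COL6A1 lies below 0, and in the right pair COL5A1, COL6A1 and COL6A2 lie far above 0 while COL7A1 and COL12A1 lie below it. The COL6A2 values against OKF6 rest on 1 read in OKF6.

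Chains that assemble into the same collagen type did not keep a fixed ratio between lines. The log2 difference of 2 chains in the same library does not depend on how libraries are scaled. COL5A1 minus COL5A2 was -2.89, -5.13 and -3.05 in OKF6, 5.21, 7.01 and 4.64 in SCC15 +YBX1, and 3.89, 3.33 and 3.83 in SCC25 +YBX1. The sign of the difference was thus negative in the normal line and positive in both cancer lines, with no overlap between any pair of lines in the +YBX1 and OKF6 libraries. The mean moved by 9.31 from OKF6 to SCC15 and by 7.37 from OKF6 to SCC25. Both moves rest on few reads, as COL5A1 had 14, 0 and 5 in OKF6 and COL5A2 had 4, 0 and 4 in SCC15 +YBX1. The values -5.13 and 7.01 come from libraries with 0 reads of 1 chain. The 0.5 added to each read count sets the level there, so the size of both moves depends on it. In the -YBX1 libraries it was 2.84, 5.96 and 3.24 in SCC15 and 3.32, 2.97 and 3.73 in SCC25, where the cancer lines overlapped (difference 0.68, exact permutation p = 0.90).

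COL6A1 minus COL6A2 was 3.81, 3.42 and 3.20 in SCC15 +YBX1 but no more than 1.49 in SCC25 +YBX1 (mean 1.40), a difference of 2.08. In the -YBX1 libraries it was 2.93, 3.43 and 3.51 in SCC15 and 1.62, 1.32 and 1.98 in SCC25, a difference of 1.65. The 2 lines did not overlap with or without knockdown. COL4A1 minus COL4A2 was -0.34, -0.37 and -0.83 in SCC15 +YBX1 and 0.53, 0.21 and 0.91 in SCC25 +YBX1, again without overlap. These are the genes that flank the first sequence shown above. In OKF6 it ran from -0.62 to 1.41 and overlapped both. An exact permutation test, two-sided, gave p = 0.10 for each of these comparisons without overlap. That is the smallest value that 3 against 3 libraries allow, so none can pass the threshold, and the exact test adjusted over 18 such comparisons gave p = 0.225.

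**Figure D3:**
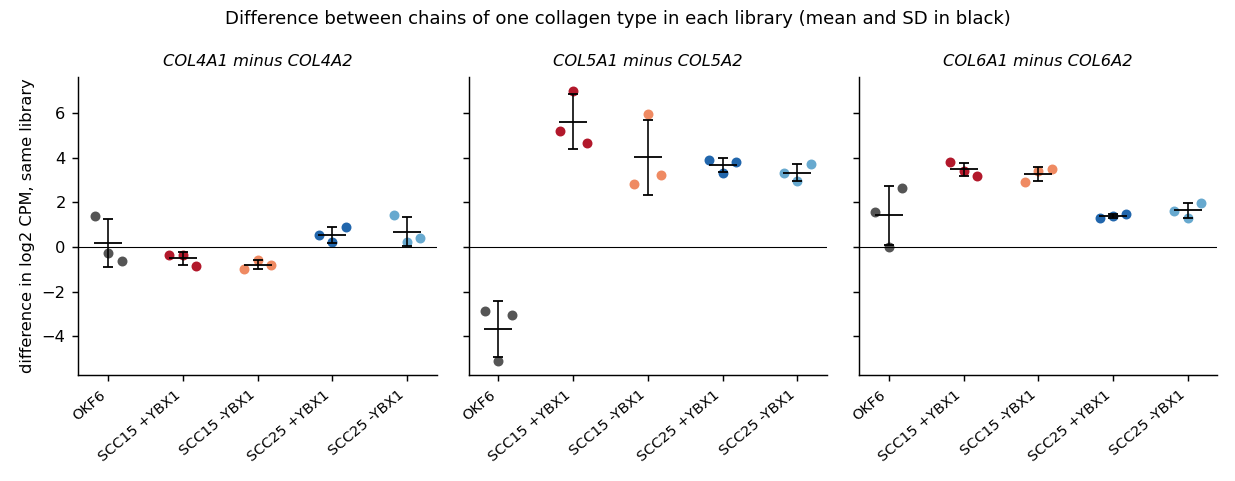
Difference in log2 CPM between 2 chains of a collagen type in the same library (vertical axis) for the 5 groups (horizontal axis). Points are libraries and black marks the mean and SD of 3. COL5A1 minus COL5A2 is negative in OKF6 and positive in SCC15 and SCC25, and COL6A1 minus COL6A2 is larger in SCC15 than in SCC25.

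To ask whether collagen RNA depended on YBX1, -YBX1 libraries were compared with +YBX1 libraries of the same line. YBX1 itself stood at 6.74, 6.31 and 6.62 in SCC25 +YBX1 and at 5.26, 4.70 and 3.65 in SCC25 -YBX1. In SCC15 it stood at 5.11, 5.56 and 6.00 without and at 3.36, 3.71 and 3.13 with doxycycline. The groups did not overlap in either line, and YBX1 was lower in all 6 same-numbered pairs. The change was -2.01 ± 0.35 in SCC25 (adjusted p = 0.290) and -2.15 ± 0.35 in SCC15 (adjusted p = 0.326), and neither passed alone, except in SCC15 when SCC25 -YBX1 replicate 3 was left out (adjusted p = 0.0202). Averaged over both lines it was -2.08 ± 0.24 (adjusted p = 0.0103), the single call of that comparison, which was lost in 6 of 12 fits that each left out 1 library (SCC15 +YBX1 replicates 2 and 3, SCC25 +YBX1 replicates 1 and 3, SCC15 -YBX1 replicates 1 and 3), with adjusted p up to 0.0711. A 3′ tag reads RNA level and not the edited site.

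None of the 9 collagen genes passed in any knockdown comparison by limma. Counts were 0 of 9 in SCC25, in SCC15, in the average of both lines and in the difference between the lines, and 0 of 9 at an unadjusted p under 0.05 in each. Over all 12995 genes 0.0% passed in SCC25, 0.0% in SCC15, 0.0077% in the average and 0.0% in the difference between lines, with 401, 302, 280 and 294 genes at an unadjusted p under 0.05. A voom fit on reads recovered from the tables gave 0, 0, 1 and 0 genes, and 0 of the 9 in each. A background this low leaves little to read from the members' count.

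Intervals show what these data could have seen. In SCC25 they were narrowest for COL4A2 (-0.25, 95% interval -0.58 to 0.07), COL6A1 (0.23, -0.27 to 0.74), COL6A2 (-0.01, -0.57 to 0.55) and COL5A1 (-0.003, -0.62 to 0.62). These intervals lay within a 2-fold change. Each is a separate 95% interval, not adjusted over genes. YBX1 RNA was lowered and not lost, so the intervals set no limit on the effect of losing YBX1 fully. In SCC15 the same 4 genes gave 0.10 (-0.23 to 0.43), -0.02 (-0.53 to 0.48), 0.16 (-0.40 to 0.73) and -0.04 (-0.66 to 0.58), also within 2-fold. The fit takes 1 spread per gene over both lines. SCC15 groups (+YBX1 and -YBX1) spread more than SCC25 groups for COL5A1 (SD 0.74 and 0.37 against 0.07 and 0.08). So they did for COL6A1 (0.52 and 0.30 against 0.20 and 0.16) and COL6A2 (0.25 and 0.61 against 0.14 and 0.24). COL4A2 was the reverse (0.04 and 0.07 against 0.16 and 0.13). Intervals from SCC15 alone were not computed and would be wider where SCC15 spread more. The COL4A1 interval lay within 2-fold in both lines, at -0.11 (-0.74 to 0.52) in SCC25 and -0.18 (-0.81 to 0.45) in SCC15, as did that of COL7A1 at -0.05 (-0.83 to 0.74) and 0.10 (-0.69 to 0.89). COL4A1 spread more in SCC25 (SD 0.43 and 0.61) than in SCC15 (0.25 and 0.25), so its SCC25 interval from that line alone would be wider. COL7A1 spread more in SCC15 (SD 0.57 and 0.36) than in SCC25 (0.47 and 0.20). Its SCC15 level rests on few reads, 8, 4 and 9 without and 11, 8 and 6 with doxycycline.

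The remaining genes were measured less precisely. COL12A1 stood at 3.51, 3.29 and 5.27 in SCC25 +YBX1 and 3.59, 1.99 and 3.34 in SCC25 -YBX1, a value of -1.05 with an interval of -2.43 to 0.33. It was lower in 2 of 3 pairs, by as much as -1.93. COL5A2 was higher in all 3 SCC15 pairs, by 1.99, 1.52 and 1.18, yet its mean of 1.56 had an interval of -0.36 to 3.49 and did not pass. Its libraries held 4, 0 and 4 reads without and 23, 1 and 10 with doxycycline. In SCC25 the COL5A2 pairs gave 0.69, 0.32 and 0.01. COL1A1 gave -0.30 (-1.42 to 0.83) in SCC25 and -0.04 (-1.17 to 1.08) in SCC15. LUM, the measured fibroblast marker, had 0, 1 and 0 reads in SCC25 +YBX1 and 9, 8 and 11 in SCC25 -YBX1 (unadjusted p = 8.61e-05, adjusted p = 0.290), and its part in these values was not tested.

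**Figure D4:**
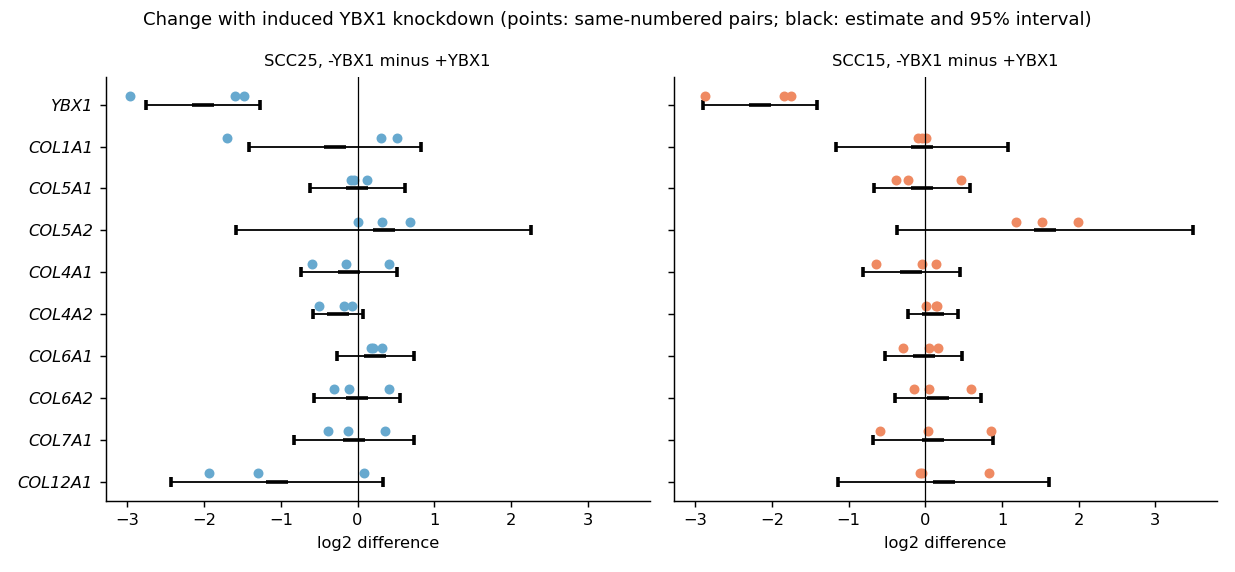
Change in log2 CPM between -YBX1 and +YBX1 libraries (horizontal axis) for YBX1 and the 9 collagen genes (vertical axis), in SCC25 and SCC15. Points are same-numbered pairs and black marks the limma estimate with its 95% interval. YBX1 lies below 0 in all 6 pairs, and the interval of every collagen gene spans 0.

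Among the 5 groups, the +YBX1 and -YBX1 groups of a line were neighbours in the order of the means for all 9 genes. This count was not made over all genes, so it cannot be read as particular to these 9. Over all genes, calls were many between lines and almost none with knockdown. The other neighbours that did not differ past the test were OKF6 and SCC25 for COL1A1 and COL5A2, OKF6 and SCC15 for COL1A1 and COL4A2, and SCC15 and SCC25 for COL6A1. SCC25 was highest for COL1A1, COL4A1, COL4A2, COL5A1, COL5A2 and COL6A2, OKF6 for COL7A1 and COL12A1, and SCC15 for COL6A1, where it did not differ from SCC25. Pearson's r over the 15 libraries, given as a description because the libraries fall into 3 lines, was 0.96 for COL6A1 with COL6A2 and 0.92 for COL7A1 with COL12A1. It was 0.74 for COL4A1 with COL4A2 and 0.41 for COL5A1 with COL5A2, and -0.73 for COL6A1 with COL12A1.

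The genes outside the collagen family whose levels followed a member most closely over the same 15 libraries were, for COL6A1, EBF3 (r = 0.993) and NID1 (0.991), for COL6A2 HOXD10 (0.995), for COL5A1 MMP2 (0.986) and AMPD2 (0.980), and for COL7A1 HR (0.990) and SMTN (0.989). COL4A1 was followed by SERPINE2 and ABCA13 (0.973 both), COL4A2 by TRMT1 (0.954) and FAM43A (0.952), COL5A2 by IFI35 (0.966) and TPD52L1 (0.962), COL12A1 by CTSC (0.970) and TMEM248 (0.969), and COL1A1 by FAM24B (0.894) and CDK17 (0.890). With 3 lines, any gene that separates them in the same order reaches a high r.

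The other 14 collagen chains of the tables also differed widely between lines. Between SCC15 and SCC25, 3 were higher in SCC15, 6 lower and 5 not called, with a median of -1.19. Of all genes, 20.0% were higher and 23.6% lower. COL17A1, the hemidesmosome collagen, had 3 reads in SCC15 +YBX1 and 4106 in SCC25 +YBX1, a ratio of 1613 with an exact counting interval of 551 to 7823. COL22A1, found at tissue junctions, had 0 and 646 reads, which makes it at least 84.6-fold lower in SCC15 against the floor of 3 reads per library. COL16A1, a fibril-associated collagen, had 2 and 517 reads. COL8A2, of the network-forming type VIII, had 0 and 99 reads and was at least 13.0-fold lower in SCC15. COL2A1, the fibrillar collagen of cartilage, went the other way, with 629 reads in SCC15 and 6 in SCC25, a ratio of 89.0 (exact counting interval 40.7 to 243). Against OKF6, 6 of the 14 were higher and 6 lower in SCC15 (median 0.60), beside 26.9% and 23.4% of all genes. In SCC25, 5 were higher and 3 lower (median 0.80, or 0.00 with genes at the floor set to their bounds), beside 18.9% and 11.3%. No other collagen passed in a knockdown comparison by limma, where 1 of 14 had an unadjusted p under 0.05 in SCC25 (COL8A1, 0.00784), 0 in SCC15, 1 in the average (COL8A1 again) and 0 in the difference, and voom called 0 in each.

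Of 33 listed genes that modify and process collagen, 31 were measured, and 6 were higher and 8 lower in SCC15 than in SCC25 (median -0.06). These counts lie near the shares over all genes in that comparison, 20.0% higher and 23.6% lower. P3H2, a prolyl 3-hydroxylase, had 7 reads in SCC15 and 1975 in SCC25, a ratio of 332 (161 to 828). COLGALT2, which adds galactose to hydroxylysine, had 216 reads in SCC15 and 1 in SCC25, a ratio of 183 (32.6 to 7274). ADAMTS2, the procollagen N-proteinase, had 94 and 2 reads, and LOXL4, a lysyl oxidase relative that cross-links collagen, had 40 and 0. Compared with OKF6, 14 were higher and 9 lower in SCC15 (median 0.54), beside 26.9% and 23.4% of all genes. In SCC25, 10 were higher and 3 lower (median 0.55), beside 18.9% and 11.3%. The SCC25 counts fell to 6 and 2 without SCC25 +YBX1 replicate 1. LOXL1, another cross-linking enzyme, had 759 reads in SCC25 and 4 in OKF6 (ratio 194, exact counting interval 75.6 to 716).

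Of 13 listed collagen receptors 10 were measured. Between SCC15 and SCC25, 3 were higher in SCC15 and 6 lower (median -3.78), beside 20.0% and 23.6% of all genes. ADGRG1, an adhesion receptor that binds collagen, had 1 read in SCC15 and 1226 in SCC25. CD44, which binds hyaluronan and collagen, had 18, 3 and 12 reads in SCC15 +YBX1 and 3297, 3623 and 3720 in SCC25 +YBX1. CSPG4, a proteoglycan that binds types V and VI, had 12, 5 and 23 reads against 236, 224 and 177. DDR2, a receptor kinase for fibrillar collagen, had 53 reads in SCC15 and 1 in SCC25. Compared with OKF6, 1 was higher and 5 lower in SCC15 (median -2.20), beside 26.9% and 23.4% of all genes. In SCC25, 1 was higher and 3 lower (median -0.55, or -0.10 with genes at the floor set to their bounds), beside 18.9% and 11.3%. The receptor higher in both lines was CSPG4, with 1 read in OKF6, 40 in SCC15 and 637 in SCC25.

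All 20 listed basement membrane partners were measured, COL17A1 among them. Between SCC15 and SCC25, 6 were higher in SCC15 and 7 lower (median -0.50), beside 20.0% and 23.6% of all genes. LAMB3, a chain of the laminin that anchors keratinocytes, had 1, 0 and 6 reads in SCC15 +YBX1 and 3685, 2122 and 2832 in SCC25 +YBX1, while LAMB2 had 392 reads in SCC15 and 0 in SCC25, at least 37.0-fold higher. Compared with OKF6, 6 were higher and 10 lower in SCC15 (median -0.61), beside 26.9% and 23.4% of all genes. In SCC25, 4 were higher and 6 lower (median -0.39), beside 18.9% and 11.3%. NID1, which links laminin to type IV collagen, had 1 read in OKF6, 625 in SCC15 +YBX1 and 397 in SCC25 +YBX1. In the -YBX1 libraries, SCC15 against SCC25 gave 4 higher and 6 lower other collagens, 9 and 11 modifying genes, 3 and 7 receptors and 7 and 9 partners. Of all genes, 28.0% were higher and 29.1% lower there. No modifying gene, receptor or partner passed in a knockdown comparison by limma or by voom, and at an unadjusted p under 0.05 there were 0, 0 and 1 in SCC25 (LAMC3), 0, 0 and 1 in SCC15 (LAMA2), 0, 0 and 1 in the average (LAMA2) and 0, 0 and 0 in the difference. LAMC3, LAMA2 and COL8A1 are named here because these counts are small, after their values were seen.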

How the data were processed

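RNA from 15 libraries of OKF6, SCC15 and SCC25 cells was sequenced with QuantSeq 3′ FWD. Per the labels and the study's methods, adapters were removed by Cutadapt, HISAT2 placed the reads on hg38, featureCounts gave reads per gene, and the authors used limma to make the deposited log2 CPM values. The use of strand in counting is not given in the sources used here. All deposited values came from whole reads (100% within 0.01 of a whole number), at 4075290 to 6118501 reads a library. Values are tied to a rescaled library size. SCC15 +YBX1 replicate 1 had 4780340 reads on genes and a size of 5491800, and SCC25 +YBX1 replicate 1 had 6090488 and 5320604. Levels stay relative to the other RNA of a library and are not amounts per cell.

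Log2 values were fitted with limma 3.58.1 (R 4.3.3; lmFit and eBayes with a mean-variance trend, all groups of a table in 1 fit, two-sided) over 12995 genes with Benjamini-Hochberg adjustment, threshold 0.05. The 2 tables share 6 libraries. Low groups were compared as read ratios with exact counting intervals, or against a floor of 3 reads per library. These intervals pool the reads of a group and cover counting error only. Between replicates of a group the chi-square per degree of freedom was 3.989 to 80.85, where counting error alone gives about 1. The intervals are therefore too narrow as a measure of the spread between libraries. Chain differences used exact permutation tests. The fit was also run on simulated counts for SCC15 against SCC25, with the same spread setting in every gene and group, unlike these libraries. That run sets no error rate for the results here. In knockdown comparisons same-numbered libraries deviated together (r = 0.143, 0.462 and 0.402 in SCC25, 0.514, 0.354 and 0.221 in SCC15, over 6497 genes), so the numbers may pair these samples. Between lines r ran from -0.207 to 0.260, and differently numbered libraries were not compared. The main fit was unpaired. Alternatives covered scaling, filters, pseudocount, variance model, the replicate block, voom on recovered reads and leaving out each library. The genes and the lists of related genes were chosen with earlier results of these data known. All 10 genes were named, and from each list up to 4 genes with the largest log2 change among those called in a comparison, with COL17A1 besides. Pattern neighbours were the 2 genes outside the family with the highest Pearson r over 15 libraries. Positions are from GENCODE on hg38 and sequences from RefSeq. COL6A3 is not analysed here, and 2 genes that these rules name are not reported here.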

Additional observations from a re-analysis of the deposited data

Results flagged for a closer look

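The change of COL4A2 with YBX1 knockdown went in opposite directions in the 2 cancer lines. It was lower in all 3 SCC25 pairs, by -0.51, -0.18 and -0.08, and higher in all 3 SCC15 pairs, by 0.01, 0.15 and 0.14. The difference between the lines, SCC25 minus SCC15, was -0.352 (SE 0.22, 95% interval -0.82 to 0.11). It did not pass in the limma interaction test (unadjusted p = 0.125, adjusted p = 1.00).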

How the results depend on the processing

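Of the differences between lines in the 9 genes and YBX1, none reversed between SCC15 and SCC25, with or without knockdown, under any alternative. At an adjusted p under 0.01, 5 of the 9 genes were called between SCC15 and SCC25, against 8. Leaving out single libraries gave 6 to 8 called genes for SCC15 against SCC25, 6 to 8 for SCC15 against OKF6, 5 to 7 for SCC25 against OKF6, 7 to 8 for SCC15 against SCC25 under knockdown, and 0 in each knockdown comparison. Genes that lost or gained a call are named with the results above. Without the variance trend, the calls of COL1A1 between SCC15 and SCC25 (adjusted p = 0.0513, and 0.0760 under knockdown), of COL4A2 between SCC25 and OKF6 (0.0694) and of the averaged YBX1 change (0.140) were lost. COL1A1 under knockdown was also lost with medians (0.0612) or quantiles (0.0896) set equal, and COL4A2 between SCC25 and OKF6 with only those groups fitted (0.0855), where COL1A1 between SCC15 and OKF6 passed (0.0445). With only those groups fitted, the differences were unchanged, at 1.06 for COL4A2 and -1.17 for COL1A1. Only the spread, its degrees of freedom and the adjustment over genes could move these calls. The group left out had an SD of 0.04 for COL4A2 (SCC15 +YBX1) and 1.09 for COL1A1 (SCC25 +YBX1). With the replicate block, COL1A1 passed between SCC15 and OKF6 (adjusted p = 0.0406), a comparison between lines, where same-numbered libraries had r from -0.207 to 0.260. The averaged YBX1 change kept its call at adjusted p = 0.0371. The block changed no call of the 9 genes in the knockdown comparisons. Comparing only 2 groups gave no value for the averaged change or the difference between lines.

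Changes near 0 turned sign. With quantiles set equal these were COL5A1 (0.0095) and COL6A2 (0.0008) in SCC25, COL6A1 (0.071) and COL7A1 (-0.0245) in SCC15, and COL7A1 averaged over lines (-0.0339). Leaving out single libraries gave ranges of -0.64 to 0.079 for COL4A2 in SCC15 against OKF6 and -0.13 to 0.96 for COL1A1 in SCC25 against OKF6. For knockdown in SCC25 the ranges were -0.85 to 0.23 for COL1A1, -0.45 to 0.15 for COL4A1, -0.043 to 0.038 for COL5A1, -0.14 to 0.075 for COL6A2 and -0.24 to 0.21 for COL7A1. In SCC15 they were -0.47 to 0.35 for COL1A1, -0.40 to 0.34 for COL5A1, -0.19 to 0.28 for COL6A1, -0.19 to 0.34 for COL6A2, -0.23 to 0.30 for COL7A1 and -0.33 to 0.55 for COL12A1. Averaged, they were -0.45 to 0.094 for COL1A1, -0.20 to 0.17 for COL5A1, -0.10 to 0.17 for COL6A2 and -0.14 to 0.16 for COL7A1. For the difference between lines they were -0.81 to 0.28 for COL1A1, -0.27 to 0.33 for COL4A1, -0.34 to 0.40 for COL5A1, -0.048 to 0.42 for COL6A1, -0.35 to 0.18 for COL6A2, -0.35 to 0.18 for COL7A1 and -0.22 to 0.58 for YBX1.

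Over all genes, SCC25 against OKF6 gave 2206 calls at an adjusted p under 0.01, against 3923. Without SCC25 -YBX1 replicate 2, 6 genes passed for knockdown in SCC25, against 0. With only genes above the first quartile of mean level, which tests fewer genes, called other collagens fell from 9 to 3 between SCC15 and SCC25, from 12 to 5 for SCC15 against OKF6 from 8 to 3 for SCC25 against OKF6 and from 10 to 4 for SCC15 against SCC25 under knockdown. Basement membrane partners fell from 13 to 7 between SCC15 and SCC25 (6 higher to 0), from 16 to 10 under knockdown and from 10 to 6 for SCC25 against OKF6, modifying genes from 23 to 15 for SCC15 against OKF6, and receptors from 4 to 2 for SCC25 against OKF6. Modifying genes fell from 13 to 8 for SCC25 against OKF6 at an adjusted p under 0.01. The fitted size of a difference is least certain where a level rests on few reads, as for COL6A2 in OKF6 and COL5A2 in SCC15.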
